A study of Homo sapiens with 18 samples.

Results

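The KDM2 to KDM6 genes encode histone lysine demethylases that share the Jumonji C (JmjC) catalytic fold. The 10 described here were KDM2A, KDM2B, KDM3A, KDM3B, KDM4A, KDM4B, KDM4C, KDM5A, KDM5B and KDM6B, found among the 60675 genes listed in the count files by matching Ensembl gene identifiers to these symbols. These 10 are not the whole of the KDM2 to KDM6 families, and KDM4D was counted in another list. RNA Seq counts came from 18 libraries of 2 prostate cancer cell lines, 3 libraries in each of 6 groups. LNCaP is an androgen-responsive line derived from a lymph node metastasis, and C4-2 is its castration-resistant derivative. In each line, cells carried a scrambled, non-targeting siRNA (siScr) with vehicle, siScr with the synthetic androgen R1881 (1 nM, 72 h), or pooled siRNAs against both KDM1A and KDM7A with the same R1881 treatment (dual knockdown). By the labels all cells were kept in medium with charcoal-stripped serum, which is depleted of steroids, while the study's methods name hormone-depleted dialysed serum. The study's methods name DMSO as the vehicle in one place and ethanol in another. Cells with the dual knockdown and vehicle were not analysed here, and no library had a single target knocked down, so the knockdown was compared with siScr in the presence of R1881 only. For the 3 C4-2 vehicle libraries the title gives C4-2 while the cell line field gives LNCaP, and the title was followed. The R1881 response in C4-2, the difference between the lines in that response and the line comparison with vehicle all rest on these libraries. Nothing in the labels says whether libraries of a group came from separate cultures, so p-values measure the spread between these libraries, which may be technical.

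JmjC demethylases use iron, oxygen and 2-oxoglutarate to oxidise methyl groups off lysines of histone tails. They work without the flavin chemistry of KDM1A and can also act on trimethylated lysine. The families differ in the residue they clear: KDM2 enzymes act on H3K36, KDM3 enzymes on H3K9, KDM4 enzymes on both H3K9 and H3K36, KDM5 enzymes on the H3K4 mark of active promoters, and KDM6B on the H3K27 mark laid down by Polycomb. In prostate cells several of them, KDM3A and the KDM4 enzymes among them, are known as cofactors of the androgen receptor.

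All 10 members were expressed in both lines. Their counts per library ran from 57 to 3782, and the lowest outside the shallowest library was 194. Library totals ranged from 3182604 in C4-2 vehicle replicate 3 to 20154243, with a median of 18117641 and a second lowest of 10485096. Levels are given as CPM, the count as a share of the library total, after scaling by TMM (trimmed mean of M values, which corrects for library composition). Both targets were lower under dual knockdown. KDM1A was at 104, 108 and 113 CPM in LNCaP with R1881 and at 48.5, 52.2 and 54.1 CPM under knockdown, and in C4-2 it was at 139.6 to 146 CPM against 14.6 to 19.9 CPM. KDM7A was at 55.0, 65.0 and 59.2 CPM in LNCaP with R1881 and at 27.7, 31.4 and 33.5 CPM under knockdown, and in C4-2 it was at 112 to 132 CPM against 18.2 to 23.9 CPM. A larger share of both target transcripts remained in LNCaP than in C4-2 (difference in log2FC of -2.04 ± 0.12 SE for KDM1A and -1.56 ± 0.14 SE for KDM7A, both called). The androgen check genes KLK3, encoding prostate-specific antigen, and TMPRSS2 rose with R1881 in LNCaP by a log2 fold change (log2FC) of 3.70 and 4.13, and in C4-2 by 4.16 and 3.11. The summed level of 7 luminal prostate markers was 2149.9 CPM or higher in each library, whereas KRT5 and TP63 (basal), CHGA and INSM1 (neuroendocrine), COL1A2 and DCN (fibroblast) and CD3E (T cell) had at most 0.362 CPM in any library. The other basal marker, KRT14, was at most 0.286 CPM with vehicle and was higher with R1881, at 0.632 to 1.59 CPM in LNCaP siScr cells (log2FC 4.16, adjusted p = 4.4e-05) and 0.734 to 1.26 CPM in C4-2 (log2FC 2.68, adjusted p = 0.00367). The other neuroendocrine marker, SYP, was at 0.583 to 3.42 CPM and was lower in C4-2 than in LNCaP with R1881 (log2FC -0.76, adjusted p = 0.0413). PTPRC, the pan-leukocyte CD45 gene, was at 1.75 to 3.21 CPM in the C4-2 vehicle libraries and at most 0.184 CPM in the other groups. The libraries with PTPRC are the same 3 whose cell line field gives LNCaP. The summed level of the 3 leukocyte markers was accordingly 2.04 to 3.52 CPM there and at most 0.734 CPM elsewhere. The 3 fibroblast markers summed to 6.96 to 36.3 CPM, nearly all from COL1A1, which was at 16.0 to 17.6 CPM with vehicle and 6.96 to 10.8 CPM with R1881 in LNCaP, and at 27.4 to 35.9 CPM and 16.9 to 24.2 CPM in C4-2. Under dual knockdown COL1A1 was at 10.1 to 12.6 CPM in LNCaP (log2FC 0.43, adjusted p = 0.0562) and at 26.4 to 36.3 CPM in C4-2, where it rose (log2FC 0.58, adjusted p = 0.00915). The part of the PTPRC, KRT14, SYP and COL1A1 differences in the results below was not tested.

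Members differed widely among themselves in level per length, in CPM per kb of exons. The length is that of all annotated exons of a gene, not of the transcripts expressed, so the order depends in part on the annotation. It was 5172 bases for KDM4A and 14716 for KDM4B, which were at 120 and 109 CPM in LNCaP with vehicle. By CPM alone, KDM2A (170) and KDM5B (166) were the highest members in that group. In LNCaP cells with vehicle the order was KDM4A (23.2 ± 0.32, SD, n = 3), KDM3B (19.3 ± 0.45), KDM6B (18.03 ± 1.34), KDM2A (16.4 ± 0.256), KDM5B (13.8 ± 0.644), KDM5A (8.71 ± 0.711), KDM3A (7.48 ± 0.168), KDM4B (7.41 ± 0.492), KDM2B (3.12 ± 0.0147) and KDM4C (1.74 ± 0.0776). The libraries of KDM3B and KDM6B overlapped in that order, as did those of KDM3A and KDM4B. KDM2B and KDM4C were the lowest pair in all 6 groups. The top place went to KDM4A in the 3 LNCaP groups and to KDM3B in the 3 C4-2 groups, although KDM3B and KDM4A overlapped in C4-2 with R1881 and in C4-2 under knockdown. KDM6B had rank 3 in LNCaP with vehicle and rank 4 in LNCaP with R1881 (9.53 ± 0.871 CPM per kb, SD, n = 3), overlapping there with KDM5B. The KDM4C level is uncertain, because 32.1% of its exonic bases also belong to a pair of genes without a symbol on the same strand, and reads in shared bases cannot be told apart. The shares were 8.97% for KDM4A (with the antisense KDM4A-AS1), 4.87% for KDM2B, 1.503% for KDM5A and 0 for the other members.

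**Figure D1:**
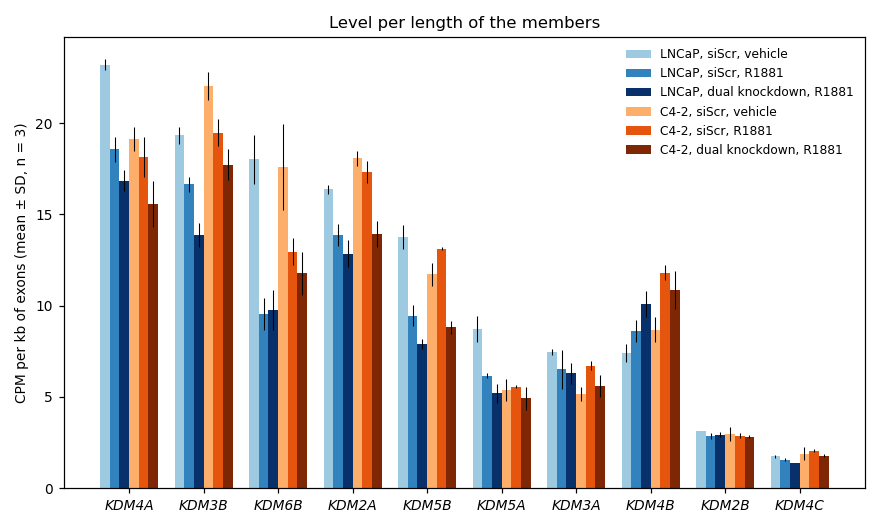
Mean level of each member in CPM per kb of exons (y axis, linear from 0) in the 6 groups (colours), with bars as mean and lines as SD over 3 libraries; members are ordered by their level in LNCaP with vehicle. KDM4A, KDM3B, KDM6B and KDM2A stood highest there, and KDM2B and KDM4C lowest in each group.

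Promoter sequences were available for all 10 members as 16 RefSeq entries on GRCh38.p14, each of 300 bases, from 250 before to 50 after a start site. Those of KDM6B, KDM4B and KDM5B are shown, since these 3 members carry the main results below. KDM6B has an entry for each of 2 start sites, and the start of the gene as the count files annotate it (chr17:7839904) lies in the second. The annotated start of KDM4B (chr19:4969113) lies in its entry. That of KDM5B (chr1:202809470, minus strand) lies outside and upstream of its entry. Capitals mark matches to the letters ACGTG on either strand, the core of the hypoxia response element, and all sequences read 5′ to 3′ on the strand of the gene.

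KDM6B, chr17:7833967-7834266, plus strand: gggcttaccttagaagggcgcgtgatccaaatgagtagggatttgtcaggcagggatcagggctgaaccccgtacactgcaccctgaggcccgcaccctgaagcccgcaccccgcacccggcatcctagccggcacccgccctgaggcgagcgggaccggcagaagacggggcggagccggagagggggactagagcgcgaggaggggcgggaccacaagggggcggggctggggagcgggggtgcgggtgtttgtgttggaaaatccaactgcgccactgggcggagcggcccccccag
KDM6B, chr17:7839667-7839966, plus strand: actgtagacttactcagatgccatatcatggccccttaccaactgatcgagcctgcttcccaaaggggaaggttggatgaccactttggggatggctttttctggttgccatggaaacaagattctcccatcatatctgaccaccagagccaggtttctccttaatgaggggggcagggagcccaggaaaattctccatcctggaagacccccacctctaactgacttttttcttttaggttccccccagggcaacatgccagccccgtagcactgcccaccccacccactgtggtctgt
KDM4B, chr19:4968863-4969162, plus strand: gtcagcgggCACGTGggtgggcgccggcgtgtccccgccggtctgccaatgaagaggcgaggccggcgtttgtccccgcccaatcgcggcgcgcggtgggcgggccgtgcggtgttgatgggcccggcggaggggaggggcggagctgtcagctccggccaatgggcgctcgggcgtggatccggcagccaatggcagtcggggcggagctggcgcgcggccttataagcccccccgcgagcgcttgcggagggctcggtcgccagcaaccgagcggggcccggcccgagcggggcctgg
KDM5B, chr1:202808372-202808671, minus strand: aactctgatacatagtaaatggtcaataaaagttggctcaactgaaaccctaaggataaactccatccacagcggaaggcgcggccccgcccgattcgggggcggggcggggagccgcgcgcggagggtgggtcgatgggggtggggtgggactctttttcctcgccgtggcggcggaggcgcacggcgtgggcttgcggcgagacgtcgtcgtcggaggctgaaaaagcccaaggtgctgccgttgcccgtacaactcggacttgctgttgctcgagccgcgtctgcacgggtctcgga

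The first KDM6B entry held 24 CpG dinucleotides and the second 2, against 43 in KDM4B and 34 in KDM5B. The full androgen response element, an inverted repeat of AGAACA with a spacer of 3 bases, was in none of the 16 entries and in 0.00285% of 35116 promoters of this length. Its half-site AGAACA, on either strand, was also in none of the 16 entries, and in 14.8% of all promoters. The cyclic AMP response element TGACGTCA was in none of them and in 1.85% of all. ACGTG was found in 1 entry each of KDM4B, KDM4C and KDM2B, or 3 of the 16 entries, and in 21.4% of all promoters. In KDM4B and KDM4C the match formed CACGTG, which is also the E-box palindrome and reads as ACGTG on both strands. These matches describe letters in a window only.

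The first question was whether androgen changed the transcripts of these enzymes. In LNCaP, R1881 lowered 6 of the 10 members. In the fitted level KDM6B fell by 47.6%, KDM5B fell by 32.4% and KDM5A fell by 30.0%. KDM4A, KDM2A and KDM3B fell by smaller amounts, and KDM4B was the 1 member that rose. In C4-2, KDM6B fell less, KDM4B and KDM3A rose, and the other 7 did not pass the test. A gene was called with an adjusted p under 0.05. In LNCaP, 7 of 10 members were called, 6 lower and 1 higher. Over all 17162 genes tested there, 46.6% were called, 23.2% lower and 23.5% higher. The median log2FC of the members was -0.24, and that of all genes tested was -0.04. In C4-2, 3 of 10 members were called, 2 higher and 1 lower, where 32.8% of 16965 genes were called, 17.1% higher and 15.7% lower. The median there was -0.01 for the members and -0.02 for all genes. No member reached a log2FC of 1 in size, which 12.3% of all genes did with an adjusted p under 0.05 in LNCaP and 9.07% in C4-2. The libraries did not overlap between R1881 and vehicle for 10 of 10 members in LNCaP (53% of all genes) and for 5 of 10 in C4-2 (46.9%). The exact permutation test of single genes cannot go below p = 0.1 with 3 libraries against 3.

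**Figure D2:**
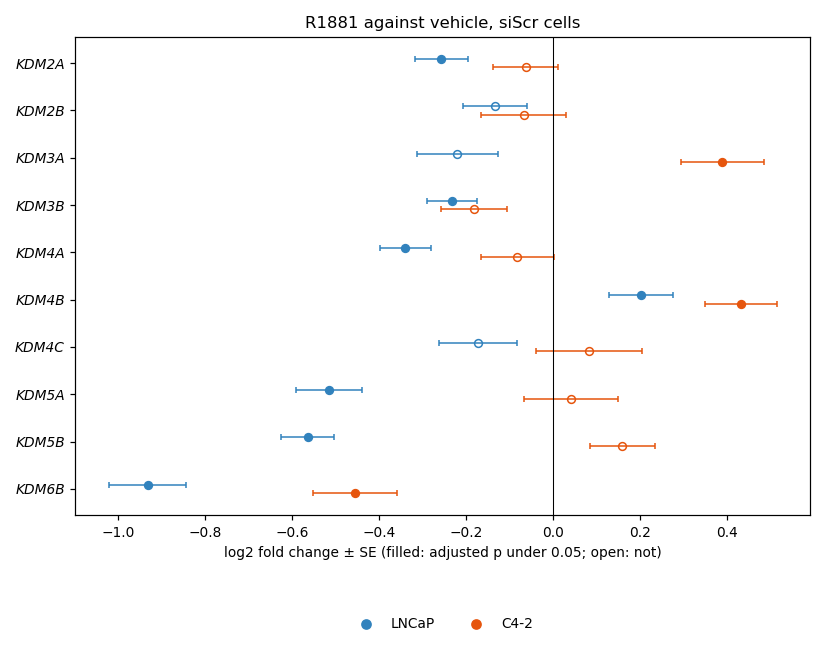
Log2 fold change with its SE (x axis) of each member (y axis) for R1881 against vehicle in siScr cells, in LNCaP (blue) and C4-2 (orange), with filled circles for an adjusted p under 0.05. In LNCaP 9 of 10 estimates lay below 0, with KDM6B lowest at -0.93, and in C4-2 they lay between -0.46 and 0.43.

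KDM6B (JMJD3, chr17:7839904-7854796 on the plus strand of GRCh38) removes methyl groups from H3K27 and so opposes the Polycomb enzyme EZH2. In LNCaP it was at 141, 121 and 131 CPM with vehicle and at 76.2, 64.0 and 67.2 CPM with R1881. In C4-2 it was at 124, 146 and 113 CPM with vehicle and at 88.3, 95.8 and 98.3 CPM with R1881. In both lines all R1881 libraries lay below all vehicle libraries. The log2FC was -0.93 ± 0.09 SE in LNCaP (adjusted p = 1.82e-07) and -0.46 ± 0.10 SE in C4-2 (adjusted p = 0.00235). Both calls were kept under all alternatives with an adjusted p alone, with a range of -1.01 to -0.86 in LNCaP and -0.52 to -0.35 in C4-2 when single libraries were left out.

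The KDM5 enzymes remove di- and trimethylation from H3K4. KDM5B, also known as PLU-1 or JARID1B (chr1:202724491-202809470, minus strand), was at 163, 175 and 161 CPM in LNCaP with vehicle and at 108, 122 and 113 CPM with R1881 (log2FC -0.56 ± 0.06 SE, adjusted p = 8.47e-07). In C4-2 it was at 133, 148 and 143 CPM with vehicle and at 157, 159 and 159 CPM with R1881 (log2FC 0.16 ± 0.07 SE, adjusted p = 0.114). The libraries therefore separated in opposite directions in the lines. The LNCaP difference passed the test, and that in C4-2 did so only without knockdown replicate 1, which enters through the shared spread (adjusted p = 0.0478). After removal of the trend with GC content, the KDM5B log2FC in C4-2 was 0.05 (adjusted p = 0.541). KDM5A, a binding partner of the retinoblastoma protein (chr12:280129-389454, minus strand), was at 101, 115 and 100.1 CPM in LNCaP with vehicle and at 76.5, 74.0 and 73.6 CPM with R1881 (log2FC -0.52 ± 0.08 SE, adjusted p = 3.37e-05). In C4-2 it was at 58.5, 72.9 and 64.1 CPM with vehicle and at 67.9, 67.9 and 66.2 CPM with R1881, and these overlapped (log2FC 0.04 ± 0.11 SE, adjusted p = 0.808).

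The KDM4 enzymes clear trimethylated H3K9 and H3K36. KDM4B (chr19:4969113-5153595, plus strand) rose with R1881 in both lines. It was at 111, 101 and 115 CPM with vehicle and at 137, 121 and 122 CPM with R1881 in LNCaP (log2FC 0.20 ± 0.07 SE, adjusted p = 0.0338). In C4-2 it was at 124, 139 and 120.3 CPM with vehicle and at 167, 177 and 177 CPM with R1881 (log2FC 0.43 ± 0.08 SE, adjusted p = 0.00106). The C4-2 call held in each alternative fit, while the LNCaP call was lost without vehicle replicate 2 (adjusted p = 0.105), without R1881 replicate 1 (0.144) and after thinning to the smallest library (0.0886). KDM4A (chr1:43650158-43705515, plus strand) fell in LNCaP from 121, 121 and 118 CPM to 93.3, 94.8 and 99.9 CPM (log2FC -0.34 ± 0.06 SE, adjusted p = 0.00014). In C4-2 its libraries overlapped, at 95.6 to 102 CPM and 90.3 to 100.5 CPM (log2FC -0.08 ± 0.08 SE). KDM4C (chr9:6757641-7175648, plus strand) was at 17.0 to 18.6 CPM with vehicle and 14.8 to 16.8 CPM with R1881 in LNCaP (log2FC -0.17 ± 0.09 SE, adjusted p = 0.126), and its C4-2 libraries overlapped.

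The KDM3 enzymes clear mono- and dimethylated H3K9. KDM3A (chr2:86440647-86492716, plus strand), which is also a target of hypoxia-inducible factor (HIF), was the member whose R1881 estimates had opposite signs with a call in C4-2. There it rose from 64.0, 69.2 and 74.6 CPM to 89.9, 87.0 and 93.7 CPM (log2FC 0.39 ± 0.10 SE, adjusted p = 0.006). In LNCaP it was at 98.6, 103 and 99.6 CPM with vehicle and at 71.1, 94.8 and 96.5 CPM with R1881 (log2FC -0.22 ± 0.09 SE, adjusted p = 0.0631). Replicate 1 of the LNCaP R1881 group was well below the other R1881 libraries, which lay just under the vehicle ones. Without that replicate the log2FC was -0.09 (adjusted p = 0.362). The LNCaP difference was called without R1881 replicate 3 (log2FC -0.28, adjusted p = 0.0417), with at least 10 counts required in every library (adjusted p = 0.0494), with the replicate block (0.0243) and after removal of the trend with GC content (0.0151). KDM3B (chr5:138352596-138437028, plus strand) fell in LNCaP from 156, 156 and 149.8 CPM to 129.7, 132 and 136 CPM (log2FC -0.23 ± 0.06 SE, adjusted p = 0.00317), a call lost after thinning (adjusted p = 0.0842). In C4-2 it was at 169 to 181 CPM with vehicle and 149 to 161 CPM with R1881, without overlap (log2FC -0.18 ± 0.08 SE, adjusted p = 0.0838). That difference was called without knockdown replicate 1 (adjusted p = 0.0337), with only the groups compared (0.0487) and with the GC trend removed (0.00405).

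The KDM2 enzymes carry a CXXC zinc finger that binds unmethylated CpG islands. KDM2A (chr11:67119269-67258087, plus strand), which acts on dimethylated H3K36, fell in LNCaP from 173, 170.0 and 167 CPM to 151, 142 and 139 CPM (log2FC -0.26 ± 0.06 SE, adjusted p = 0.00235). In C4-2 it was at 183 to 192 CPM with vehicle and 173 to 184 CPM with R1881 (log2FC -0.06 ± 0.07 SE, adjusted p = 0.564). KDM2B (chr12:121429097-121581015, minus strand), which brings a variant Polycomb repressive complex (PRC1.1) to CpG islands, was not called in any of the 8 comparisons. Its group means ran from 38.4 to 42.5 CPM, with a log2FC for R1881 of -0.13 in LNCaP (95% interval -0.28 to 0.01) and -0.07 in C4-2 (-0.26 to 0.12).

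**Figure D3:**
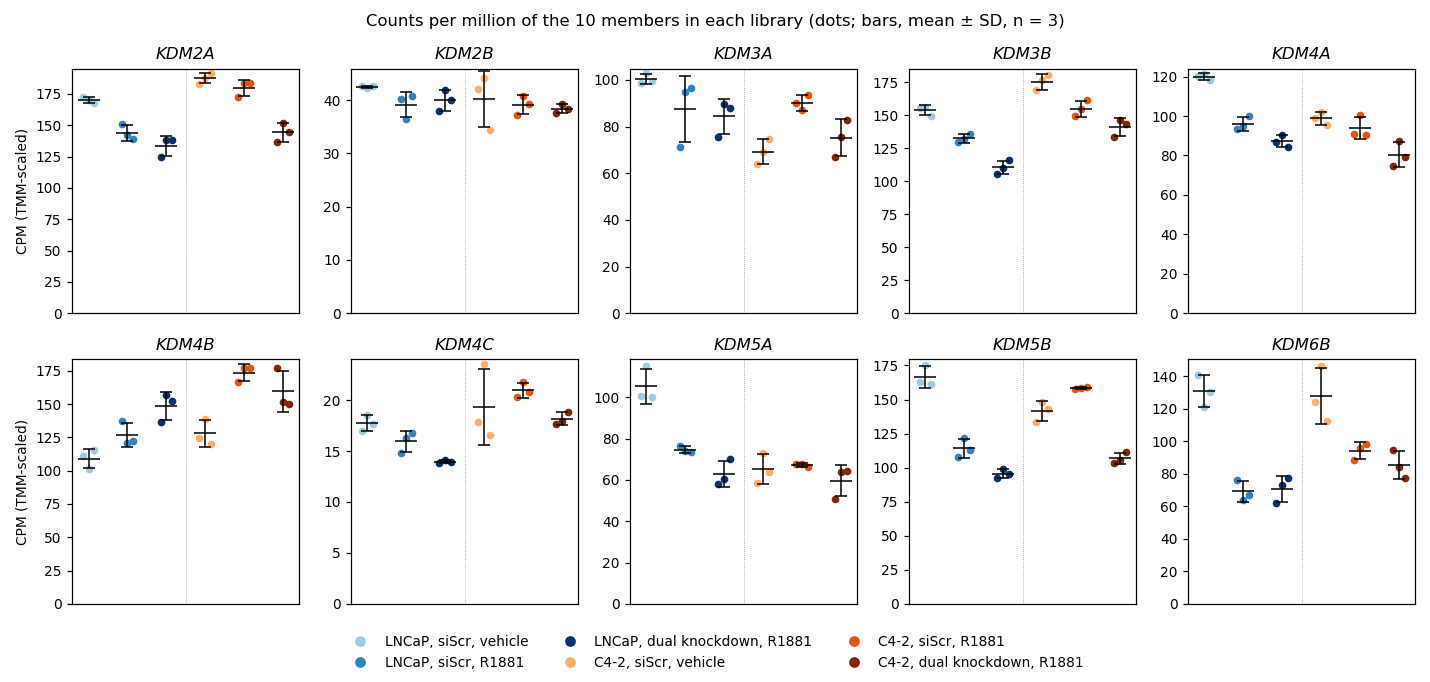
Each panel shows 1 member, with CPM after TMM scaling on the y axis (linear from 0) and the 6 groups along the x axis, LNCaP left and C4-2 right of the dotted line; dots are libraries and bars mean ± SD (n = 3). KDM6B fell with R1881 in both lines, KDM5A and KDM5B fell in LNCaP, and KDM2B stayed between 34.4 and 44.2 CPM in all libraries.

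The difference between the lines in the response to R1881 was tested as an interaction over all 18 libraries. It was called for 4 of 10 members, all with the higher value in C4-2, against 14% of 18684 genes in either direction, 6.05% with the higher and 7.95% with the lower value in C4-2. The largest was that of KDM5B (0.71 ± 0.09 SE, adjusted p = 7.41e-06), followed by KDM3A (0.60 ± 0.14 SE, adjusted p = 0.00621), KDM5A (0.54 ± 0.13 SE, adjusted p = 0.00788) and KDM6B (0.46 ± 0.14 SE, adjusted p = 0.0319). The first 3 of these were called under each alternative with an adjusted p alone. That of KDM6B was lost when any of 8 single libraries was left out (adjusted p up to 0.0912), the shallow C4-2 vehicle replicate 3 among them (difference 0.40, adjusted p = 0.0567). The other 6 members were not called, while 4.32% of all genes were called with a difference of at least 1 in size. Their estimates ran from 0.04 for KDM3B (95% interval -0.13 to 0.20) to 0.24 for KDM4A (0.06 to 0.43). All 10 estimates were positive, with a median of 0.24 where all genes had -0.0006. The count of positive estimates was 9 of 10 without C4-2 vehicle replicate 3, after thinning and after removal of the GC trend.

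The second question was whether the other demethylases rose when KDM1A and KDM7A were depleted. In C4-2 all members had lower estimates, by edgeR and by DESeq2, and in LNCaP KDM4B was the 1 member called higher. KDM5B fell in both lines, KDM2A fell in C4-2 and KDM3B fell in LNCaP. This comparison used the same siScr R1881 libraries that served for the androgen response, so the values of the comparisons are not independent. In LNCaP 3 of 10 members were called, 2 lower and 1 higher, against 14.2% of 17162 genes in either direction, 5.89% lower and 8.27% higher. In C4-2 2 of 10 were called, both lower, against 23.5% of 16965 genes, 10.8% lower and 12.7% higher. The median log2FC was -0.11 for the members and 0.001 for all genes in LNCaP, and -0.20 and 0.01 in C4-2. All 10 estimates in C4-2 were below 0, also in all 17 alternative fits. In LNCaP 7 of 10 were below 0, and 6 to 8 in the alternative fits. All knockdown libraries lay below all siScr libraries for 6 of 10 members in LNCaP and for 7 of 10 in C4-2. Over all genes the libraries did not overlap for 34.5% in LNCaP, 18.5% in the lower direction, and for 40.5% in C4-2, 19.2% in the lower direction. Genes called with a log2FC of at least 1 in size were 0.286% in LNCaP and 3.94% in C4-2, no member among them.

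KDM5B fell in C4-2 from 157, 159 and 159 CPM to 103, 105 and 111 CPM, where the fitted level fell by 32.9% (log2FC -0.58 ± 0.07 SE, adjusted p = 8.33e-05). In LNCaP it went from 108, 122 and 113 CPM to 92.4, 99.3 and 95.2 CPM (log2FC -0.23 ± 0.06 SE, adjusted p = 0.0201). In neither line did the knockdown libraries overlap with the siScr libraries. The C4-2 call held in each alternative fit. The LNCaP call was lost without 5 of the 6 libraries compared, siScr replicate 1 being the exception (adjusted p from 0.0546 to 0.0985 for the other 5), after thinning (0.127) and after removal of the GC trend (log2FC -0.15, adjusted p = 0.0903). The response differed between the lines by -0.32 ± 0.09 SE (adjusted p = 0.0251), which made KDM5B the 1 member of 10 called in this interaction, against 10.9% of 18684 genes, 3.88% lower and 6.97% higher in C4-2 (1.99% with a size of at least 1). That call was lost without any of 8 single libraries (adjusted p up to 0.089), without a filter on low counts (0.0904) and after thinning (0.0845).

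KDM2A fell in C4-2 from 173, 184 and 184 CPM to 137, 152 and 145 CPM (log2FC -0.32 ± 0.07 SE, adjusted p = 0.00583), a call that held in each alternative fit. In LNCaP it was at 151, 142 and 139 CPM in siScr cells and 124, 138 and 138 CPM under knockdown (log2FC -0.09 ± 0.06 SE, adjusted p = 0.359). The difference between the lines was -0.21 ± 0.09 SE and was not called (adjusted p = 0.128), although it was after removal of the GC trend (-0.29, adjusted p = 0.0188). KDM3B fell in LNCaP from 129.7, 132 and 136 CPM to 106, 109.8 and 116 CPM (log2FC -0.24 ± 0.06 SE, adjusted p = 0.0125), and was at 149 to 161 CPM against 133 to 146 CPM in C4-2 (log2FC -0.14 ± 0.08 SE, adjusted p = 0.204). The LNCaP call was lost without siScr replicate 3 (adjusted p = 0.0659) or knockdown replicates 1 (0.0579) or 2 (0.0613), and after thinning (0.0988).

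KDM4B was at 137, 121 and 122 CPM in LNCaP siScr cells and at 136, 157 and 153 CPM under knockdown (log2FC 0.25 ± 0.07 SE, adjusted p = 0.0345). Knockdown replicate 1 lay among the siScr libraries. The call was lost without siScr replicates 2 (adjusted p = 0.144) or 3 (0.140), without knockdown replicates 2 (0.153) or 3 (0.0961), after thinning (0.145) and after removal of the GC trend, where the log2FC was 0.02 (adjusted p = 0.857). In C4-2 KDM4B was at 167 to 177 CPM in siScr cells and 150.0 to 177 CPM under knockdown (log2FC -0.13 ± 0.08 SE). The difference between the lines, -0.35 ± 0.11 SE, had an adjusted p of 0.0511 and was called in 5 of the alternative fits that kept all libraries.

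The remaining members were not called in either line. KDM3A in C4-2 was close to the threshold, at 89.9, 87.0 and 93.7 CPM in siScr cells and 67.0, 75.7 and 82.8 CPM under knockdown (log2FC -0.27 ± 0.09 SE, adjusted p = 0.0503), and it was called in 7 alternative fits that kept all libraries. KDM4A was at 90.3 to 100.5 CPM against 74.9 to 87.5 CPM in C4-2 (log2FC -0.23 ± 0.08 SE, adjusted p = 0.0606), and it was called with the replicate block (adjusted p = 0.0303), with only the groups compared (0.0420) and with the GC trend removed (0.0122). KDM5A was at 73.6 to 76.5 CPM against 57.9 to 70.0 CPM in LNCaP (log2FC -0.23 ± 0.08 SE, adjusted p = 0.0575), and it was called in 5 alternative fits that kept all libraries. In these 3 the libraries did not overlap. KDM6B overlapped between knockdown and siScr in both lines (log2FC 0.05 ± 0.09 SE in LNCaP and -0.15 ± 0.10 SE in C4-2), and so did KDM2B (0.05 ± 0.07 SE and -0.03 ± 0.10 SE). The KDM4C libraries lay lower in both lines (log2FC -0.17 ± 0.09 SE and -0.21 ± 0.12 SE, adjusted p = 0.219 and 0.227).

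The knockdown comparison was repeated with each library's trend of counts with GC content removed. GC content was 60.2% in KDM4B and 58.8% in KDM6B transcripts, 43.8% in KDM3A and 45.0% in KDM5B, with a median of 49.6% over the genes tested. The share of all genes called was not computed in these fits, so the counts of members below stand without it. With the trend removed, 1 member was called in LNCaP (KDM3B, log2FC -0.18), where the log2FC of KDM4B moved from 0.25 to 0.02. In C4-2 6 were called, all lower: KDM2A, KDM3A, KDM4A, KDM4B, KDM5B and KDM6B. Their log2FC moved little there, from -0.27 to -0.28 for KDM3A, from -0.23 to -0.24 for KDM4A and from -0.15 to -0.20 for KDM6B, while the SE became smaller (0.07 in place of 0.09 for KDM3A). Some R1881 estimates moved more when the trend was removed. The log2FC of KDM4B for R1881 went from 0.20 to 0.33 in LNCaP and from 0.43 to 0.61 in C4-2. In C4-2 that of KDM6B went from -0.46 to -0.33 and that of KDM3A from 0.39 to 0.27. These R1881 calls were kept.

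**Figure D4:**
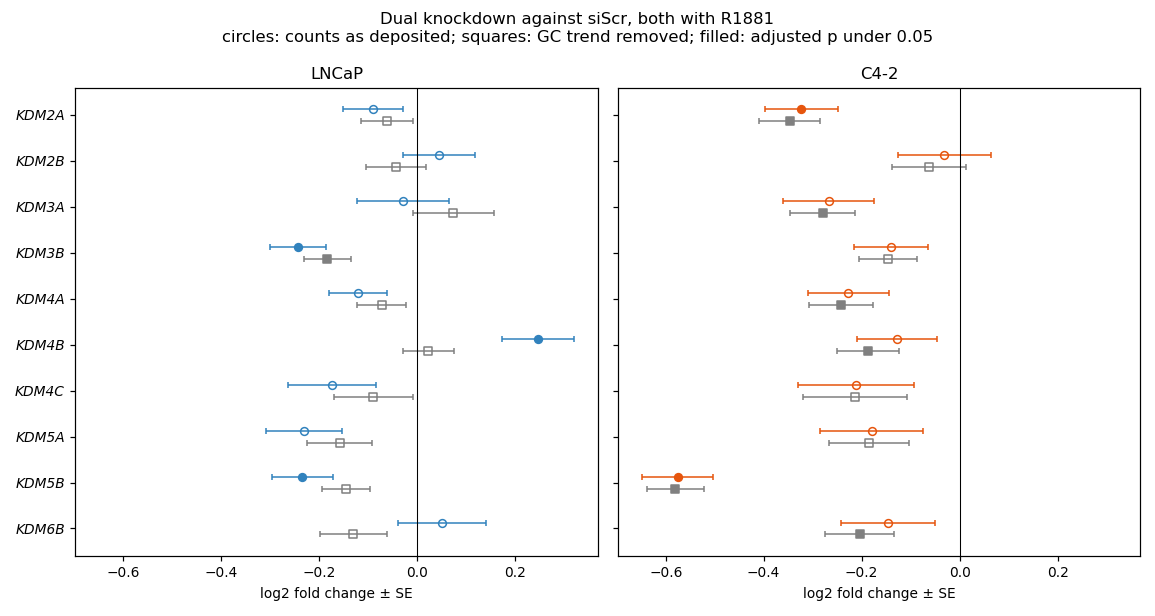
Log2 fold change with its SE (x axis) of each member (y axis) for dual knockdown against siScr, both with R1881, in LNCaP (left) and C4-2 (right), from the counts as deposited (circles) and with the GC trend removed (squares); filled symbols have an adjusted p under 0.05. KDM5B in C4-2 stayed at -0.58 in both, while KDM4B in LNCaP moved from 0.25 to 0.02.

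The lines were also compared directly. A difference here cannot be told apart from separate culture or preparation of the lines. The comparisons share their siScr libraries and fit with the R1881 interaction. A line difference that changes between vehicle and R1881 is therefore that interaction restated, not separate evidence. With vehicle, 6 of 10 members were called, 4 lower and 2 higher in C4-2, against 58.9% of 18684 genes, 29.5% lower and 29.4% higher. With R1881, 6 of 10 were called, all higher in C4-2, against 58.3% of genes, 28.6% higher and 29.7% lower. The median log2FC of the members was -0.03 with vehicle and 0.27 with R1881, and that of all genes was -0.01 in both. A log2FC of at least 1 in size was called for 24.2% of genes with vehicle and 23.8% with R1881, no member among them. KDM5A (log2FC -0.69 ± 0.10 SE, adjusted p = 2.44e-06) and KDM3A (-0.55 ± 0.10 SE, adjusted p = 9.27e-05) were lower in C4-2 with vehicle, and with R1881 they were not called (-0.15 ± 0.09 SE and 0.05 ± 0.10 SE). Both vehicle calls held in each alternative fit. KDM5B was lower in C4-2 with vehicle (-0.24 ± 0.06 SE, adjusted p = 0.00323) and higher with R1881 (0.47 ± 0.06 SE, adjusted p = 1.27e-06). Of these, the vehicle call was lost after thinning (adjusted p = 0.116) and after removal of the GC trend (log2FC -0.03, adjusted p = 0.691). KDM6B had overlapping libraries with vehicle (-0.02 ± 0.10 SE) and was higher in C4-2 with R1881 (0.44 ± 0.10 SE, adjusted p = 0.000689).

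KDM4B was higher in C4-2 with vehicle (0.24 ± 0.08 SE) and with R1881 (0.45 ± 0.08 SE, adjusted p = 5.06e-05), and KDM3B likewise (0.19 ± 0.06 SE and 0.23 ± 0.06 SE). The vehicle call of KDM4B was lost without LNCaP vehicle replicate 2 (adjusted p = 0.098), without C4-2 vehicle replicate 2 (0.120), with at least 10 counts required in every library (0.0601) and with the GC trend removed (0.446). The vehicle call of KDM3B was lost without a filter (0.0882) and with the stricter one (0.0677), and its R1881 call after thinning (0.0815). KDM2A (0.32 ± 0.06 SE) and KDM4C (0.39 ± 0.10 SE) were higher in C4-2 with R1881, the latter without a call after thinning (adjusted p = 0.267). KDM4A was lower in C4-2 with vehicle (-0.27 ± 0.07 SE), a call lost with the GC trend removed (adjusted p = 0.118). With vehicle KDM2A was not called (0.14, adjusted p = 0.0549), although its libraries did not overlap. Removal of the GC trend also added calls. With vehicle, KDM2A (0.27, adjusted p = 0.00026) and KDM4C (0.37, adjusted p = 0.00215) were then higher in C4-2 and KDM6B lower (-0.17, adjusted p = 0.0485). With R1881, KDM3A was higher (0.19, adjusted p = 0.0432).

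**Figure D5:**
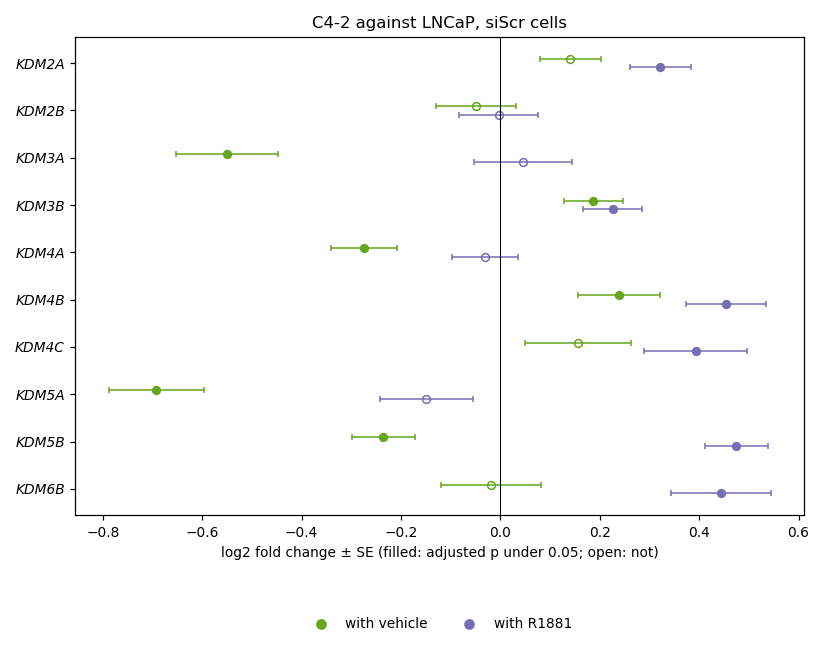
Log2 fold change with its SE (x axis) of each member (y axis) for C4-2 against LNCaP in siScr cells with vehicle (green) and with R1881 (purple), with filled circles for an adjusted p under 0.05. KDM5A and KDM3A lay lowest with vehicle, at -0.69 and -0.55, and the 6 members called with R1881 were all higher in C4-2.

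The enzymes that write the same marks, and other lists, were counted for comparison. The shares of all genes called that these counts stand beside are 23.5% higher and 23.2% lower for R1881 in LNCaP, 17.1% and 15.7% for R1881 in C4-2, 8.27% and 5.89% for knockdown in LNCaP, and 12.7% and 10.8% for knockdown in C4-2. Of 19 histone methyltransferases, 15 (78.9%) fell with R1881 in LNCaP, against 23.2% of all genes, and 6 (31.6%) fell and 1 rose in C4-2, against 15.7% lower and 17.1% higher. Under dual knockdown 6 of 19 (31.6%) fell in LNCaP, against 5.89%, and 2 of 19 in C4-2, a share near the 10.8% of all genes. The median log2FC of the 19 was -0.31 and -0.15 with R1881, and -0.12 and -0.13 under knockdown. All 6 H3K4 methyltransferases fell with R1881 in LNCaP, and 2 did in C4-2. KMT2C had a log2FC of -0.64 ± 0.07 SE in LNCaP, KMT2A -0.48 ± 0.07 SE and KMT2B -0.63 ± 0.12 SE. Under knockdown KMT2C fell in both lines (-0.46 in LNCaP and -0.34 in C4-2). Of 6 H3K9 methyltransferases, 3 fell with R1881 in LNCaP, and in C4-2 2 fell and 1 rose. EHMT2 (G9a) fell in both lines (-0.63 and -0.45), SETDB1 in LNCaP (-0.31), and SUV39H1 in C4-2 (-0.52). Both H3K27 methyltransferases, EZH1 (-0.27) and EZH2 (-0.21), fell with R1881 in LNCaP, and EZH2 did in C4-2 (-0.31). Of 5 H3K36 methyltransferases, 4 fell with R1881 in LNCaP and 1 in C4-2. ASH1L (-0.45) and SETD2 (-0.31) fell in LNCaP, and NSD2 in both lines (-0.26 and -0.37). Under knockdown 3 of these 5 fell in LNCaP, ASH1L (-0.29) and SETD2 (-0.28) among them.

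A further list held other demethylase genes, KDM4D among them, and related genes that are not all known demethylases. Of its 12 genes tested, 6 rose and 4 fell with R1881 in LNCaP, and 4 rose and 2 fell in C4-2. The shares of all genes were 23.5% higher and 23.2% lower in LNCaP and 17.1% and 15.7% in C4-2. PHF8, a relative of KDM7A, rose in both (0.60 ± 0.06 SE and 0.48 ± 0.08 SE), and so did KDM7A itself (0.56 and 1.17). Under knockdown 3 fell in each line, where 5.89% of all genes fell in LNCaP and 10.8% in C4-2. Among the 3 were the siRNA targets KDM1A and KDM7A, whose fall the design set, so these do not count as a response of the list. Of 9 genes for partners of KDM2B in PRC1.1, 3 rose and 4 fell with R1881 in LNCaP, and 4 rose and 2 fell in C4-2, beside the same shares. RYBP rose in both lines (0.38 and 0.36), while BCOR (-0.21 and -0.50) and CBX8 (-0.39 and -0.32) fell in both. Under knockdown 2 of these 9 fell in LNCaP, and 1 rose and 1 fell in C4-2. BCOR fell under knockdown in both lines (-0.26 and -0.31).

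KDM3A, KDM4B and KDM6B are known to respond to low oxygen, so 12 further HIF target genes were counted beside them. Of the 11 tested, 9 rose with R1881 in each line, while 2 fell in LNCaP and 1 in C4-2, where 23.5% and 17.1% of all genes rose. NDRG1 (2.36 and 2.15), ANKRD37 (2.22 and 1.71) and HK2 (0.81 and 0.41) rose in both lines. The median log2FC of the list was 0.47 in LNCaP and 0.66 in C4-2. Of the members, KDM4B rose in both lines, KDM3A rose in C4-2, and KDM6B fell in both. HIF activity was not measured, and its part in these changes was not tested. Under knockdown 1 of the 11 rose in LNCaP, against 8.27% of all genes, and 3 fell in C4-2, against 10.8%, HK2 among them (-0.42).

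Genes whose pattern over the 6 groups was most like that of KDM6B, KDM5B and KDM5A, the members with the largest changes within a line, were ranked by the root mean square difference of centred group means of log2(CPM + 1). For KDM6B they included ARHGEF4 (0.0563) and PCGF2 (0.0771). For KDM5B they were RFX7 (0.0544), EIF4ENIF1 (0.0639) and RSF1 (0.0708). For KDM5A they were ZNF124 (0.0495), THOC1 (0.0527) and C6orf118 (0.0558). The measure rests on 6 means from the same 18 libraries and is a description.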

How the data were processed

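RNA Seq was performed on 18 poly(A) libraries of LNCaP and C4-2 cells, grouped by sample title. The authors trimmed read pairs with Trim Galore, aligned them to GRCh38 with STAR and counted them with featureCounts 1.5.0-p1 against Ensembl 83. The deposited values are unnormalised whole-number counts, each the read pairs of 1 gene. In the file headers no option for strand or for reads mapping to several places was set, so reads of overlapping genes, antisense ones included, cannot be told apart. The totals and precision per library are given in the text.

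Gene symbols were found for 56996 of 60675 genes. Counts were scaled by TMM, filtered with filterByExpr (minimum count 10, minimum total 15) and tested with the quasi-likelihood F-test of edgeR 4.0.16 (limma 3.58.1, R 4.3.3), 2-sided. The p-values were adjusted over all genes tested by the method of Benjamini and Hochberg. The 9 libraries of a line were fitted together, and all 18 for differences between lines. The common biological coefficient of variation was 0.083 in LNCaP, 0.115 in C4-2 and 0.102 over both. The 95% intervals are normal ones from the SE. Single genes were also compared by a 2-sided exact permutation test of CPM. DESeq2 1.42.0 served as an alternative. Other steps used Python 3.11.15. Promoters came from RefSeq (GRCh38.p14).

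Replicates of a group differed by more than counting error (chi-square per gene 2.56 to 18.6 over 18 pairs). The highest values were those of the shallow C4-2 vehicle replicate 3 (18.6 and 18.3). Next came C4-2 knockdown replicate 1, at 17.4 and 15.3 against replicates 2 and 3, which differed from each other by 3.6. The members and lists were chosen with earlier results of these data known. All 10 members were to be named, with KDM1A, KDM7A, KLK3 and TMPRSS2, and up to 3 genes of each list with the smallest adjusted p within a line. The 3 genes most like each of the 3 members with the largest change within a line were to be named as well, of which 1 is not reported here. Alternatives were RLE scaling, DESeq2, no filter, a stricter filter (every library at 10 counts or more), only the groups compared, a replicate block, removal of the GC trend, thinning to the smallest library, a log2FC of at least 1, and leaving out each library.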

Additional observations from a re-analysis of the deposited data

Results flagged for a closer look

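For 4 members the response to R1881 differed between the lines by the interaction test. The difference in log2FC, C4-2 minus LNCaP, was 0.71 for KDM5B, 0.60 for KDM3A, 0.54 for KDM5A and 0.46 for KDM6B. For KDM5B and KDM5A the LNCaP log2FC was -0.56 and -0.52 and the C4-2 log2FC was 0.16 and 0.04. For KDM3A it was -0.22 in LNCaP and 0.39 in C4-2, and for KDM6B -0.93 and -0.46. The KDM6B call was lost when any of 8 single libraries was left out. The response of KDM5B to dual knockdown was also called different, by -0.32, between log2FC values of -0.58 for C4-2 and -0.23 for LNCaP. That call was lost when any of 8 single libraries was left out, without a filter and after thinning. It shares the siScr R1881 libraries with the KDM5B difference in the R1881 response, so these results are not independent. Under dual knockdown the fall of both siRNA targets was larger in C4-2 (log2FC -3.12 for KDM1A and -2.51 for KDM7A) than in LNCaP (-1.05 and -0.93). The part of that in the KDM5B knockdown difference was not tested.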

How the results depend on the processing

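Of 32 called results of single members, 19 stayed called in each alternative with an adjusted p alone, and none changed direction. Of 48 uncalled results, 17 were called in at least 1 alternative. With a log2FC of at least 1 also required, 0 members were called in each of the 8 comparisons. The share of all genes called was not computed for the other alternatives, so the counts of members below stand without it. For dual knockdown in LNCaP, 3 members were called, against 1 with the GC trend removed and 0 after thinning. For dual knockdown in C4-2, 2 were called, against 4 when replicate number was a block (replicate block), 4 when the fit held the 2 groups alone, and 6 with the GC trend removed. For the difference between lines in the knockdown response, 1 was called, against 2 with RLE scaling, DESeq2, the stricter filter, the GC trend removed or only the groups compared, and 0 after thinning. With single libraries left out, the number called ranged from 6 to 8 for R1881 in LNCaP, 3 to 5 for R1881 in C4-2, 0 to 4 for knockdown in LNCaP, 2 to 3 for knockdown in C4-2, 5 to 7 and 6 to 6 between lines with vehicle and R1881, 3 to 5 for the R1881 interaction and 0 to 2 for the knockdown interaction. The cause was not tested, apart from the smaller number of counts after thinning and of libraries when some were left out. Whether replicate numbers pair the libraries was not settled. Same-numbered libraries of a line deviated together with r from -0.19 to 0.43 over 12 pairs, of which 4 were over 0.1. The highest were 0.39 and 0.43, for LNCaP vehicle with R1881 in replicates 1 and 2. With the replicate block, 8 members were called for R1881 in LNCaP and 3 in C4-2, 3 for knockdown in LNCaP, 6 in both line comparisons, and 4 and 1 in the interactions. Depth limits the C4-2 vehicle group most, through the library with 3182604 counts, where KDM4C had 57.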
